A study of Homo sapiens with 6 samples.

Results

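The SR proteins are splicing factors named for a domain rich in serine and arginine. The 10 genes described here (SRSF1, SRSF2, SRSF3, SRSF4, SRSF5, SRSF6, SRSF7, SRSF9, SRSF10 and SRSF11) were chosen by symbol from the 26364 genes of the deposited count table, as SR genes known for highly conserved poison exons. All 10 were present and all 10 passed the filter on low counts. All RNA came from HEK293T, an established line of transformed human embryonic kidney cells, that had been given 200 nM okadaic acid for 3 h, with no untreated cells among the samples. Okadaic acid blocks the phosphatases that take phosphate off UPF1, the helicase on which nonsense-mediated mRNA decay (NMD) depends. The 6 libraries form a group of 3 in which phosphorylated UPF1 was immunoprecipitated (IP) with the RNA bound to it (p-UPF1 IP, replicates 3, 6 and 9), and a control group of 3 titled pre-IP (replicates 1, 4 and 7). The control's antibody is nevertheless given as rabbit IgG, so it may be RNA from before the IP or from a mock IP. Separate cultures are not stated for the replicates, and p-values then measure the spread between these libraries alone, which may be technical.

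An SR protein binds short sequences in exons through an RNA-recognition motif and, through its RS domain, draws the splicing machinery to nearby splice sites. SR genes hold back their own output: when the protein is plentiful, its pre-mRNA is spliced to include a poison exon or to use a similar alternative event, which puts a stop codon ahead of an exon junction. Ribosomes that end translation there leave the exon junction complex downstream, UPF1 is phosphorylated by SMG1, and the mRNA is degraded by NMD. A comparison of p-UPF1 IP with pre-IP asks whether reads of a gene are over- or under-represented among RNA held by phosphorylated UPF1.

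GENCODE 29 annotates at least 1 NMD transcript for each of the 10 genes, 22 in all, from 1 for SRSF5, SRSF6 and SRSF9 to 6 for SRSF7. In all 22 the stop codon lies more than 50 nt before the last exon junction, the distance commonly taken to trigger NMD, and the distances run from 95 to 1138 nt. In 6 genes the stop of at least 1 NMD transcript falls in a cassette exon, an internal exon that overlaps no exon of the gene's longest protein-coding transcript. Of these 6, SRSF7 and SRSF11 also have NMD transcripts with the stop elsewhere. The last 30 bases of the reading frame are printed to show where each frame ends. They are given for the transcript with a cassette-exon stop that has the most exons in each gene. They run 5′ to 3′, with the premature stop codon in capitals.
SRSF3 (SRSF3-203, exon 4 of 7, 456 nt, GRCh38 chr6:36599821-36600276, plus strand): accatcatgtctcttctcaccaccctcTGA
SRSF4 (SRSF4-206, exon 4 of 8, 175 nt, GRCh38 chr1:29165890-29166064, minus strand): ggagaggttcggttcttacaaggaaaaTGA
SRSF6 (SRSF6-202, exon 3 of 7, 268 nt, GRCh38 chr20:43459153-43459420, plus strand): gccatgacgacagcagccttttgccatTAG
SRSF7 (SRSF7-204, exon 4 of 9, 449 nt, GRCh38 chr2:38748898-38749346, minus strand): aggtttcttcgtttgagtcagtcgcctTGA
SRSF9 (SRSF9-206, exon 3 of 5, 90 nt, GRCh38 chr12:120464733-120464822, minus strand): ttccgagttcttgtttcagaaaactatTAG
SRSF11 (SRSF11-212, exon 4 of 7, 117 nt, GRCh38 chr1:70231859-70231975, plus strand): gttgttcataaaacagcttttgaaagtTGA
The SRSF9 run takes 19 of its 30 bases from the exon before, and the SRSF7 run takes 2. These coordinates belong to GRCh38, a later build than the hg19 of the count table, and were not used with it. The table gives 1 count per gene and library, so reads from a poison exon and from the protein-coding mRNA of the same gene were not separated.

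The pre-IP libraries had totals of 600244 to 1179369 counts, and the p-UPF1 IP libraries 905926 to 2057647. Small structured RNAs, such as snoRNAs and snRNAs, made up 68.0% ± 6.40 (SD, n = 3) of the pre-IP counts against 34.5% ± 9.63 of the p-UPF1 IP counts, and protein-coding genes 30.9% ± 6.22 against 63.3% ± 9.29. A gene can therefore gain CPM (counts scaled to the library total) in p-UPF1 IP and still lose ground to other mRNAs. TMM scaling, used for the main test, sets the bulk of genes near a log2 fold change of 0 (median of 8070 tested genes 0.10). With library totals alone that median was 1.63, a shift of about that size for every gene. Of 8 HEK293T-associated genes 5 were tested, of which 1 rose (INA) and 0 fell (median 0.24). Over all tested genes 8.81% were called higher and 10.9% lower. With library totals alone 3 of the 5 were called higher (median 1.79), against 60.4% of all tested genes. INA had a log2 fold change of 1.79 with TMM (adjusted p = 0.0252 by edgeR). It had 13, 7 and 3 counts in pre-IP replicates 1, 4 and 7, and passed the filter on low counts only with its p-UPF1 IP counts. Its call was lost without 3 of the 6 libraries (adjusted p up to 0.198), with limma-voom and with the length trend removed. VIM, the most counted, had 90 to 209 counts in pre-IP libraries and 720 to 1527 in the others. PAX2 and LHX1 were at 0 in all 3 pre-IP libraries. Of 20 markers of other cell types 16 had no count in any library, and together they took 0 to 0.000635% of counts in pre-IP libraries and 0.00038% to 0.000883% in p-UPF1 IP.

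As a family, the SR genes took more of each p-UPF1 IP library than of any pre-IP library, on library totals. Their summed share of all counts was 0.130%, 0.0750% and 0.110% in the pre-IP libraries (replicates 1, 4 and 7, the order used from here on), against 0.259%, 0.240% and 0.339% in the p-UPF1 IP libraries (replicates 3, 6 and 9). The lowest of these, in pre-IP replicate 4, has an exact (Clopper-Pearson) 95% interval of 0.0682% to 0.0822%, and the highest, in p-UPF1 IP replicate 9, one of 0.327% to 0.351%, both for counting error only, since PCR reads without molecular identifiers are not independent molecules. The means were 0.105% ± 0.0278 and 0.280% ± 0.0524, or 2.67-fold higher in p-UPF1 IP (no test was made on a sum over chosen genes). A higher mean share was not particular to the SR genes. Protein-coding genes together were 2.05-fold higher. Other splicing genes with RS domains went from 0.0871% to 0.368%, and the hnRNP and PTB genes from 0.235% to 0.72%. Genes that act on SR proteins went from 0.0463% to 0.168%, and the NMD factors reported here from 0.0111% to 0.108%. As a share of protein-coding counts alone the family took 0.368%, 0.316% and 0.327% in pre-IP libraries and 0.421%, 0.437% and 0.462% in p-UPF1 IP, which is 1.31-fold higher on the mean. The groups did not overlap on that measure. Without SRSF11 the same share was 0.306% to 0.342% in pre-IP libraries and 0.341% to 0.388% in p-UPF1 IP (1.13-fold), and the groups overlapped.

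**Figure D1:**
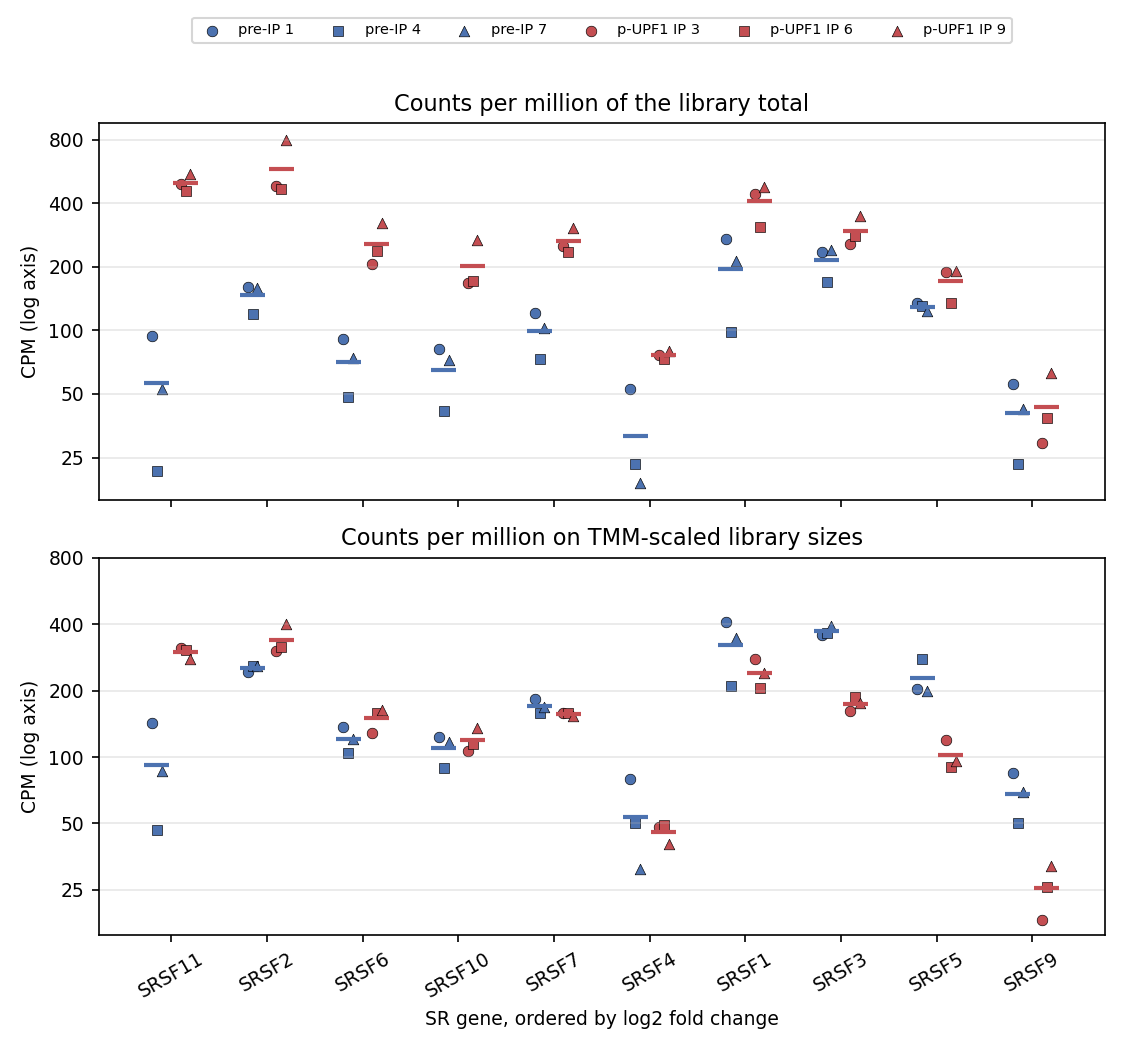
Level of each SR gene in each library (points) with group means (bars), as CPM of the library total (upper panel) and as CPM on TMM-scaled library sizes (lower panel), both on log axes. On library totals the groups are apart for 8 of 10 genes, all higher in p-UPF1 IP, against 68.7% of all tested genes. On TMM-scaled sizes SRSF11 and SRSF2 are higher and SRSF3, SRSF5 and SRSF9 lower without overlap. Over all tested genes 21.9% are higher and 17.7% lower without overlap on that scale.

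The SR genes split in the main test: 1 of 10 was higher in p-UPF1 IP (SRSF11), 3 were lower (SRSF3, SRSF5 and SRSF9) and 6 did not pass (edgeR quasi-likelihood F-test, Benjamini-Hochberg 0.05 over 8070 genes). Among all tested genes 8.81% were called higher and 10.9% lower. Among tested protein-coding genes alone the shares were 9.17% and 7.87%, with a median log2 fold change of 0.15. The 1 call upward is near the background share on either base. The 3 calls downward are above it, but the count was 1 without p-UPF1 IP replicate 3, and 2 without replicate 6, with no filter on low counts or with the length trend removed. In either direction 4 of 10 passed, against 19.7% of all genes. The median log2 fold change of the 10 was -0.18, and its difference from the median of all tested genes was -0.29. With library totals alone 7 of 10 were called higher and 0 lower, against 60.4% and 1.93% of all tested genes, with a member median of 1.35, and the gap to all genes was -0.28. SRSF3, SRSF5 and SRSF9 then had positive log2 fold changes that did not pass, and SRSF11 was called higher on both scales. On library totals 8 of 10 had groups that did not overlap, each higher in p-UPF1 IP, against 68.7% of tested genes, and 0 were lower without overlap, against 2.64%. On TMM-scaled sizes 2 were higher and 3 lower without overlap, against 21.9% and 17.7%.

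SRSF11, a divergent SR protein (p54) with a single RNA-recognition motif that contacts the U2 auxiliary factor, was the member most enriched with p-UPF1. It had 111, 13 and 50 counts in the pre-IP libraries, against 1018, 842 and 496 in the p-UPF1 IP libraries. On TMM-scaled sizes that is 142, 46.5 and 86.4 CPM in pre-IP libraries and 311, 307 and 277 CPM in p-UPF1 IP. Every p-UPF1 IP library stood above every pre-IP library, and the pre-IP libraries were the more spread. The log2 fold change was 1.64 (SE 0.34, adjusted p = 0.00302), a 3.13-fold increase, and 9.85% of tested genes had a log2 fold change as high or higher. It was called in all 18 alternatives that were fitted, with log2 fold changes from 1.41 to 3.14 and adjusted p values from 2.11e-05 to 0.0162. On library totals its mean went from 56.2 ± 36.3 to 500 ± 45.2 CPM (8.89-fold). The antisense gene AL353771.1 lies inside SRSF11 on the opposite strand and is not among the genes counted. Its part in the SRSF11 counts was not tested.

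SRSF2 (SC35), which has a single RNA-recognition motif and stays in the nucleus, was the next in order. It had 190, 72 and 150 pre-IP counts against 989, 863 and 718 p-UPF1 IP counts, or 243, 258 and 259 and then 302, 314 and 402 CPM on TMM-scaled sizes. The groups were apart, but the value of 0.42 on the log2 scale (SE 0.30) did not pass (adjusted p = 0.338), and it was called only with library totals alone (2.01, adjusted p = 0.000171). SRSF2 shares its locus with MIR636, which lies inside it on the same strand, and with MFSD11, which overlaps it on the opposite strand. The table gives MIR636 from 0 to 5 counts per library and MFSD11 from 3 to 53. The counting's strand setting is not given in the sources used here, so how reads of the overlap were assigned was not tested.

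SRSF3 and SRSF7 are small, shuttling SR proteins that adapt mRNAs for export, and SRSF7 also carries a zinc knuckle. Both have a long cassette exon (456 and 449 nt, printed above), and only SRSF3 passed the test; the difference between them was not tested. SRSF3 had 278, 102 and 227 pre-IP counts against 526, 513 and 315 p-UPF1 IP counts, or 356, 365 and 392 and then 161, 187 and 176 CPM on TMM-scaled sizes. The p-UPF1 IP libraries were all lower on that scale, and all higher on library totals (170 to 240 against 256 to 348 CPM). SRSF3 fell by 1.09 on the log2 scale with TMM (SE 0.29, adjusted p = 0.0131), while with library totals alone its value was 0.47 (adjusted p = 0.214). Without p-UPF1 IP replicate 3 the call was lost at a similar value (-1.04, adjusted p = 0.0821), as it was with no filter on low counts (-0.91, adjusted p = 0.0674). SRSF7 had 143, 44 and 97 pre-IP counts against 518, 433 and 275 p-UPF1 IP counts. Its TMM-scaled levels of 183, 158 and 168 and then 158, 158 and 154 CPM lay close together (log2 fold change -0.12, SE 0.27, adjusted p = 0.798).

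SRSF5 (SRp40) and SRSF9 (SRp30c) belong to the SR proteins with a pair of RNA-recognition motifs, and both were lower by TMM. SRSF5 had 159, 78 and 116 pre-IP counts against 389, 247 and 172 p-UPF1 IP counts, or 203, 279 and 200 and then 119, 89.9 and 96.2 CPM on TMM-scaled sizes. It fell by 1.15 on the log2 scale with TMM (SE 0.29, adjusted p = 0.00983), with a value of 0.43 on library totals alone (adjusted p = 0.259), where the groups overlapped. The call was lost without p-UPF1 IP replicate 6 (-1.07, adjusted p = 0.0522).

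SRSF9 was the most thinly counted in p-UPF1 IP and had the lowest log2 fold change of the family. It had 66, 14 and 40 pre-IP counts against 60, 71 and 57 p-UPF1 IP counts, although 2 of the p-UPF1 IP libraries were deeper than any pre-IP library. On TMM-scaled sizes its levels were 84.4, 50.1 and 69.1 and then 18.3, 25.8 and 31.9 CPM, without overlap. SRSF9 fell by 1.46 on the log2 scale with TMM (SE 0.37, adjusted p = 0.00996), and on library totals alone its value was 0.08 (adjusted p = 0.879). Its longest protein-coding transcript is the shortest of the 10 at 1201 nt, against 2387 to 4325 nt for the others, and the trend of log2 fold change on transcript length over all genes stood at -0.73 at that length. With that trend removed its log2 fold change was -0.64 (adjusted p = 0.266), and without p-UPF1 IP replicate 3 it was -1.27 (adjusted p = 0.0784). GATC overlaps SRSF9 on the opposite strand, with 19 to 27 counts per pre-IP library and 48 to 107 per p-UPF1 IP library, and its part in the SRSF9 counts was not tested.

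The other 3 proteins with a pair of RNA-recognition motifs did not pass the test. SRSF1 (ASF/SF2), the founding member of the family, had 321, 59 and 201 pre-IP counts against 910, 567 and 431 p-UPF1 IP counts. Its TMM-scaled levels were 411, 211 and 347 and then 278, 206 and 241 CPM, overlapping (log2 value -0.43, SE 0.32, adjusted p = 0.366). SRSF6 (SRp55) had 107, 29 and 70 counts and then 422, 437 and 293, with TMM-scaled levels of 137, 104 and 121 and then 129, 159 and 164 CPM (0.31, SE 0.28, adjusted p = 0.477). SRSF4 (SRp75), the largest protein of the family, had 62, 14 and 18 counts and then 158, 135 and 72. Its levels of 79.3, 50.1 and 31.1 and then 48.3, 49.1 and 40.3 CPM overlapped (-0.24, SE 0.37, adjusted p = 0.690), and its pre-IP libraries differed among themselves by more than its groups did.

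SRSF10 (SRp38), which represses splicing once it loses its phosphates, lay at the middle of all genes. It had 96, 25 and 68 pre-IP counts against 346, 317 and 243 p-UPF1 IP counts. Its TMM-scaled levels of 123, 89.5 and 117 and then 106, 115 and 136 CPM overlapped (log2 fold change 0.09, SE 0.28, adjusted p = 0.850). With library totals alone SRSF1 (1.09), SRSF4 (1.27), SRSF6 (1.85), SRSF7 (1.43) and SRSF10 (1.65) were each called higher, with adjusted p values from 0.000394 to 0.0187.

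**Figure D2:**
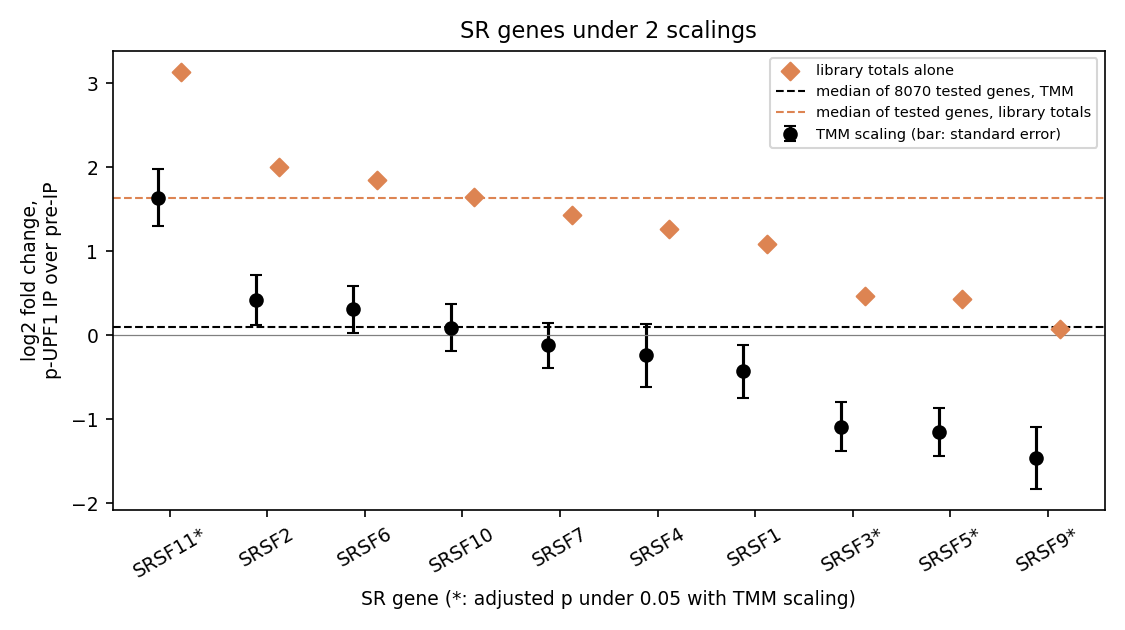
Log2 fold change of each SR gene, p-UPF1 IP over pre-IP, with TMM scaling (circles, bars are 1 standard error) and with library totals alone (diamonds), beside the medians of all tested genes on each scale (dashed lines, 0.10 and 1.63). The order of the genes is the same on both scales. SRSF11, SRSF2 and SRSF6 lie above the median on both scales, and SRSF10 lies close to it. SRSF7, SRSF4, SRSF1, SRSF3, SRSF5 and SRSF9 lie below it on both.

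The make-up of the SR counts within each library does not depend on how libraries are scaled to each other. SRSF11 took 7.24%, 2.89% and 4.82% of the SR counts in pre-IP libraries and 19.1%, 19.0% and 16.1% in p-UPF1 IP, a difference of 13.1 percentage points. SRSF3 took 18.1%, 22.7% and 21.9% and then 9.86%, 11.6% and 10.3%, a difference of -10.3 points. These were the widest gaps of the 10, and the groups did not overlap for either. The shares of SRSF2 (14.3% ± 1.81 and 20.5% ± 2.56, SD, n = 3) and SRSF6 (6.72% ± 0.269 and 9.11% ± 1.05) were also higher in every p-UPF1 IP library. Those of SRSF5 (13% ± 3.81 and 6.16% ± 0.981) and SRSF9 (3.76% ± 0.603 and 1.53% ± 0.371) were lower in every one. SRSF7 had 9.49% ± 0.252 and 9.48% ± 0.460 of the SR counts. The groups overlapped for SRSF7, SRSF1, SRSF4 and SRSF10. For the 6 members without overlap the two-sided exact permutation test gave p = 0.1; no split of 3 against 3 can give less, so none could pass at 0.05. Shares within a library add to 100%, so a higher share of SRSF11 and SRSF2 leaves less for the other genes.

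**Figure D3:**
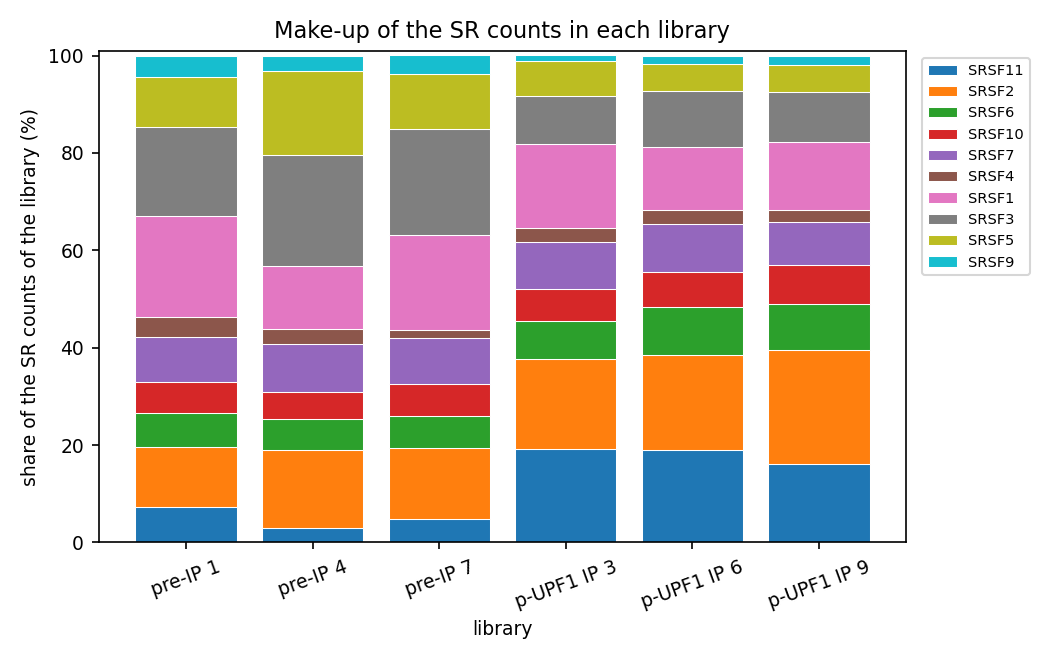
Share of the summed SR counts taken by each gene (stacked, adding to 100%) in each of the 6 libraries. SRSF11 and SRSF2 fill more of each p-UPF1 IP library than of any pre-IP library, and SRSF3, SRSF5 and SRSF9 less, while SRSF7 has mean shares of 9.49% and 9.48%.

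Per kilobase of the longest protein-coding transcript, the levels in pre-IP on library totals were ordered SRSF1 (62.4 ± 28.4 CPM per kb), SRSF3 (51.0 ± 9.32), SRSF2 (50.8 ± 8.01), SRSF5 (45.9 ± 2.16), SRSF7 (39.8 ± 9.71), SRSF9 (33.8 ± 13.6), SRSF10 (18.6 ± 5.96), SRSF6 (16.4 ± 4.94), SRSF11 (14.9 ± 9.60) and SRSF4 (13.3 ± 7.64). No neighbours in that order were further apart than their SDs together. In p-UPF1 IP the levels were led by SRSF2 (201 ± 63.6 CPM per kb), SRSF11 (132 ± 11.9), SRSF1 (131 ± 28.5) and SRSF7 (106 ± 14.3). SRSF3 (69.6 ± 11.3), SRSF5 (60.8 ± 11.3), SRSF6 (59.0 ± 14.1), SRSF10 (58.2 ± 16.2), SRSF9 (36.3 ± 14.5) and SRSF4 (32.1 ± 1.28) followed. The step from SRSF7 to SRSF3 was the only one between neighbours that was wider than their SDs together. SRSF11 stood in the ninth place in pre-IP and in the second in p-UPF1 IP.

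Members called lower had either kind of annotated NMD event, in a cassette exon or elsewhere. Of the 6 genes with a stop in a cassette exon, SRSF7 and SRSF11 also have NMD transcripts with the stop elsewhere. These 6 genes had log2 fold changes from -1.46 (SRSF9) to 1.64 (SRSF11), with a median of -0.18, 1 called higher and 2 lower. The other 4 (SRSF1, SRSF2, SRSF5 and SRSF10) ran from -1.15 to 0.42, with a median of -0.17, 0 called higher and 1 lower. Over all genes 9.37% of the 3459 tested protein-coding genes with an annotated NMD transcript were called higher and 7.11% lower (median 0.20), against 9.01% and 8.53% of the 4008 without one (median 0.11).

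Of 23 other splicing genes with RS domains that were tested, 4 rose and 0 fell (17.4% higher, beside 8.81% higher and 10.9% lower over all tested genes), with a median of 0.55. With library totals alone the median was 2.07 and 22 were called higher, on a scale where 60.4% of all genes were. SRRM2, a large scaffold of nuclear speckles, rose by 2.37 (SE 0.32, adjusted p = 0.000102). SREK1 (1.70, adjusted p = 0.00983), BCLAF1 (1.27, adjusted p = 0.0277) and the CTD-binding factor SCAF1 (2.98, adjusted p = 0.0206, on only 3, 1 and 0 pre-IP counts) rose as well. SCAF1 and SREK1 (26, 3 and 7 pre-IP counts) passed the filter on low counts only with their p-UPF1 IP counts. SON, which with SRRM2 forms the core of speckles, had a value of 0.77 that did not pass (adjusted p = 0.0688), passed with DESeq2 (0.80, adjusted p = 0.0157) and with the GC trend removed (0.99, adjusted p = 0.0246), and was 0.18 with the length trend removed. SRSF8, an SR gene outside the 10, had -0.80 (adjusted p = 0.205), or 0.76 with library totals alone, and SRSF12 had from 0 to 9 counts per library and was not tested.

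Of 14 tested kinase, phosphatase and transport genes that act on SR proteins, 2 rose and 0 fell (14.3% higher, beside 8.81% of all tested genes; median 0.71, or 2.20 with library totals alone). They were the kinases SRPK2 (2.26, SE 0.59, adjusted p = 0.0128) and CLK1 (1.11, SE 0.36, adjusted p = 0.0395), which phosphorylate RS domains in the cytoplasm and the nucleus. SRPK2 (only 6, 1 and 3 pre-IP counts) and CLK1 (45, 5 and 32) passed the filter on low counts only with their p-UPF1 IP counts. The most counted genes of the list, the import receptor TNPO1 (0.79, adjusted p = 0.114) and the export receptor NXF1 (0.90, adjusted p = 0.0799), did not pass. Of 18 alternatives TNPO1 was called higher in 4 and NXF1 in 3, library totals alone among them (2.28 and 2.41). With the length trend removed TNPO1 was 0.10.

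The hnRNP and PTB genes, which often oppose SR proteins at splice sites, had calls both ways. Of 25 tested, 4 rose and 1 fell (16% and 4%, beside 8.81% and 10.9% of all tested genes; median 0.15, or 1.72 with library totals alone). PCBP1 (2.44, adjusted p = 0.000937), HNRNPA3 (1.68, adjusted p = 0.0012), PTBP1 (1.0, adjusted p = 0.0403) and HNRNPUL1 (0.97, adjusted p = 0.0254) rose. PCBP1 had 17, 4 and 6 pre-IP counts and passed the filter on low counts only with its p-UPF1 IP counts. HNRNPC, which binds uridine tracts, fell by 0.90 (adjusted p = 0.0425), with 0.66 on library totals alone (adjusted p = 0.103). The most counted, HNRNPH1 (-0.18, adjusted p = 0.744) and HNRNPU (-0.25, adjusted p = 0.655), did not pass, and both values were positive with library totals alone (1.38 and 1.32). The NMD factors reported here had 3 higher and 0 lower of 8 tested (37.5% higher, median 1.43): UPF1 (1.70), SMG1 (3.39) and SMG5 (1.53), with adjusted p values from 2.44e-05 to 0.00513. With library totals alone all 8 were called higher (median 2.96), on a scale where 60.4% of all tested genes were. UPF1 (21, 5 and 28 pre-IP counts) and SMG1 (27, 2 and 11) passed the filter on low counts only with their p-UPF1 IP counts. SMG1 has near-identical pseudogenes, so its value is uncertain.

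Of these 13 genes called higher and HNRNPC, SRRM2, HNRNPA3, PCBP1, UPF1, SMG1 and SMG5 were called in all 18 alternatives. With 1 library left out, SREK1 no longer passed once p-UPF1 IP replicate 9 was dropped (0.0556 for the adjusted p). SCAF1, SRPK2 and HNRNPUL1 lost it without 3 of the 6 libraries, CLK1 without 4, and BCLAF1, PTBP1 and HNRNPC without 5 (highest adjusted p from 0.0677 for SRPK2 to 0.186 for HNRNPC). With the length trend removed SREK1 (1.24, adjusted p = 0.0686), BCLAF1 (0.77, adjusted p = 0.198), PTBP1 (0.81, adjusted p = 0.117) and HNRNPUL1 (0.81, adjusted p = 0.0787) did not pass. With the GC trend removed SCAF1 (2.09, adjusted p = 0.112), PTBP1 (0.49, adjusted p = 0.323), HNRNPUL1 (0.64, adjusted p = 0.139) and HNRNPC (-0.82, adjusted p = 0.0675) did not. HNRNPC was also lost with no filter (-0.73, adjusted p = 0.18) and with upper-quartile scaling (-0.87, adjusted p = 0.051), and CLK1 with limma-voom (1.04, adjusted p = 0.0647). Differences between the lists were not tested.

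**Figure D4:**
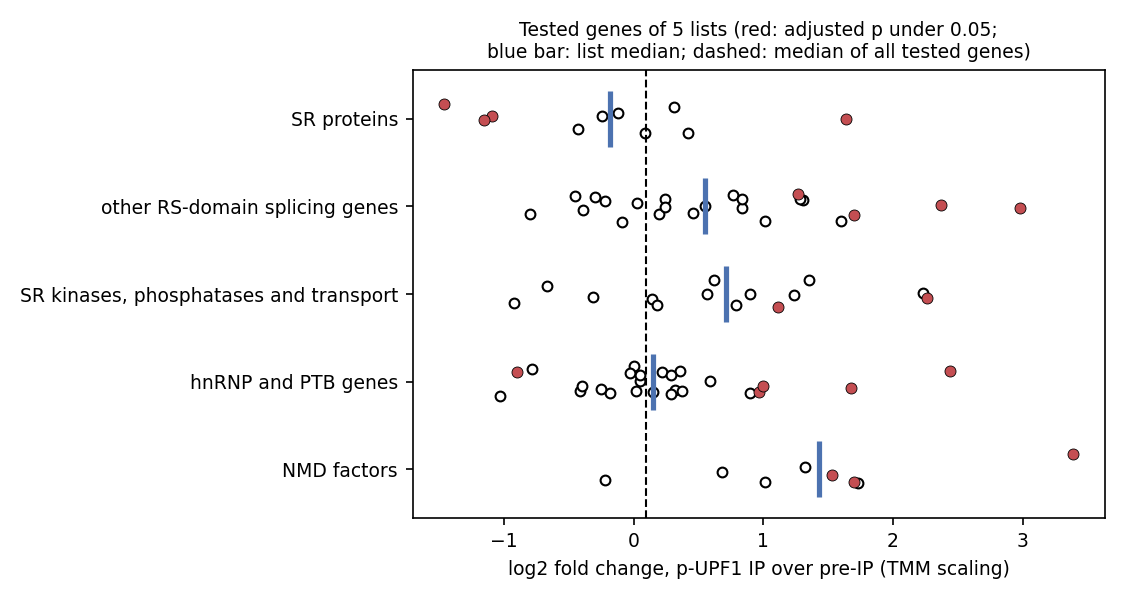
Log2 fold change with TMM scaling of the tested genes of the SR family, 3 related splicing lists and the NMD factors reported here (points, red where the adjusted p is under 0.05), with each list's median (blue bar) and the median of all tested genes (dashed line, 0.10). The SR genes have a median of -0.18 with 3 of their 4 calls to the left, and the NMD factors one of 1.43 with all 3 calls to the right. Over all tested genes 8.81% were called higher and 10.9% lower.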

How the data were processed

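The authors deposited raw, unnormalized read counts by gene symbol in 6 columns, all used. The submitters' processing notes name STAR 2.5.2b, Subread 1.5.0p3 (featureCounts), cutadapt 1.15 and hg19. Annotation, strand setting and multi-mapping: not given in the sources used here. Per the labels' protocols, rRNA was depleted, adapters were ligated to both RNA ends and cDNA was amplified by PCR. Counts were tested with edgeR 4.0.16 in R 4.3.3 (filterByExpr, minimum count 10, TMM, quasi-likelihood F-test, Benjamini-Hochberg 0.05 over all genes), after a check on simulated data. The standard error (SE) is the log2 fold change divided by the square root of F. Alternatives were other scalings, filters, DESeq2 1.42.0, limma-voom of limma 3.58.1, gene exclusions, length and GC trends (loess span 0.5), a replicate block and each library left out. Members and lists were chosen with earlier results of these data known. Named genes are the 10 members, UPF1, the 2 most counted and every called gene of each list, the latter partly named after their values were seen, and 5 nearest profiles. Symbols were matched to GENCODE 29 (23775 of 26364). Protein sequences were not used here, and 1 member of the list of NMD factors is not reported here.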

Additional observations from a re-analysis of the deposited data

How the results depend on the processing

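With RLE or upper-quartile scaling, DESeq2, limma-voom, the replicate block, the stricter filter (minimum count 30), the GC trend removed and the 10 most counted genes or the small structured RNAs left out, 1 SR gene was called higher and 3 lower, as in the main test; with no filter or the length trend removed 2 were lower. With library totals alone 7 SR genes were higher, 0 lower, with a median of 1.35. On that scale 60.4% of all tested genes were called higher and 1.93% lower, with a median of 1.63. There SRSF1 (1.09), SRSF3 (0.47), SRSF4 (1.27), SRSF5 (0.43), SRSF7 (1.43) and SRSF9 (0.08) turned positive. So did HNRNPC (0.66), HNRNPH1 (1.38), HNRNPU (1.32), SRSF8 (0.76), LRRC8D (1.18), ANAPC5 (1.33), NGRN (1.41), CENPN (1.46) and RBM39 (1.47). Leaving out 1 library gave 1 SR gene higher each time, 1 to 3 lower and medians from -0.23 to 0.07 (positive without pre-IP replicate 1; over the libraries left out SRSF4 ran from -0.52 to 0.25 and CENPN from -0.11 to 0.12), and folds of the SR share of all counts from 2.33 to 3.03. It gave folds of the protein-coding share from 1.27 to 1.37, an alternative chosen after seeing the data, as was leaving out SRSF11 (1.13). Values near 0 changed sign with no filter (SRSF7 0.06, NGRN 0.04, CENPN 0.11, RBM39 0.09), with the length trend removed (SRSF10 -0.06) and with the GC trend removed (SRSF7 0.05, NGRN 0.15, CENPN 0.07, RBM39 0.16). The fold of the SR share was 1.31 with small structured RNAs left out. Of 180 values of the members under alternatives, 162 kept their direction and side of the threshold. Within the SR counts, with 1 library left out, the difference of SRSF4 ran from -0.793 to 0.362 points (positive without pre-IP replicate 1 and, at 0.0422, without p-UPF1 IP replicate 9) and that of SRSF7 from -0.157 to 0.26 (positive without p-UPF1 IP replicate 9 and, at 0.141, without pre-IP replicate 4). The count of all calls was 1591 in the main test, 5030 with library totals alone, 869 with the length trend removed and 791, 950 and 908 without p-UPF1 IP replicate 3, 6 or 9. The labels do not pair libraries; deviations within label triplets correlated at 0.09, 0.17 and 0.10, each library best with its own triplet, a hint from the data only, and the replicate block moved the count of calls to 1656; it changed no SR gene's call and, of the other named genes, called SON (0.78, adjusted p = 0.0476), TNPO1 (0.89, adjusted p = 0.0315) and VIM (0.84, adjusted p = 0.038). Depth limits the pre-IP side most: SRSF4, SRSF9 and SRSF11 had 13 or 14 counts in pre-IP replicate 4.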

Other observations

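The 5 tested genes outside the family whose TMM-scaled log2 profile over the 6 libraries lay nearest to the mean profile of the SR genes were LRRC8D, a subunit of volume-regulated anion channels, ANAPC5, a subunit of the anaphase-promoting complex, NGRN, a factor of mitochondrial ribosome assembly, CENPN, a centromere protein, and the RS-domain splicing factor RBM39. Their root mean square differences from that profile ran from 0.0682 (LRRC8D) to 0.0943 (RBM39) on the log2 scale. None of the 5 passed the test (edgeR, adjusted p from 0.63 for ANAPC5 to 0.928 for CENPN). They were picked on these same 6 libraries for lying near the mean SR profile, so this is not a separate result. LRRC8D had only 6 counts in pre-IP replicate 4. Among the members themselves SRSF7 lay nearest to the family mean at 0.0821, and SRSF11 (1.05), SRSF9 (0.649) and SRSF5 (0.580) farthest.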
